A study of Mus musculus with 22 samples.

Results

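The nuclear-encoded genes of the mitochondrial respiratory chain were followed in total RNA of the right brain hemisphere of 22 mice. The members were the rows of both count tables whose symbol starts with Nduf, Sdha, Sdhb, Sdhc, Sdhd, Uqcr, Atp5 or Cox4 to Cox8, without pseudogene names ending in the -ps form and antisense names ending in os. This rule took 96 of 24421 genes. Of these, 43 belong to complex I, 8 to complex II, 8 to complex III, 20 to complex IV and 17 to complex V. The counts include 13 assembly factors or related proteins that share the prefix and are no lasting part of an enzyme. The respiratory chain proteins encoded in the mitochondrial genome are not among them, since 0 genes with the mt- prefix are in the tables.

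The mice were of the inbred strain C57BL/6JOlaHsd (C57B6/J OlaHsd in the labels), for which the labels give no genetic change or drug, and were 10 to 12 weeks old when their rank was set by the tube test, where the mouse pushed out of a narrow tube loses. Dominant males and submissive males were 7 each, from 7 cages, and dominant females and submissive females were 4 each, from 4 cages. Each cage gave 1 dominant and 1 submissive mouse, killed at the same time. Cages are named here by the replicate number their mice share, as male cages 1 to 7 and female cages 1 to 4, and the library names of female cages 3 and 4 carry the group names Gr1 and Gr2 in place of a cage number. In the study, females of intermediate rank were put into new groups and tested again, and the labels do not say which sampled females those were. The library names of males and females carry different prefixes, and their counts were deposited in separate tables. Sex, table and library prefix therefore cannot be told apart, and the labels do not say what the prefix stands for.

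The respiratory chain sits in the inner mitochondrial membrane. Complex I takes electrons from NADH and complex II takes them from succinate, complex III passes them on to cytochrome c, and complex IV gives them to oxygen. Complexes I, III and IV pump protons, and complex V, the ATP synthase, lets the protons flow back to make ATP. Neurons depend on this supply for ion pumping and synaptic transmission. Since a hemisphere is a mixture of cells, fewer cells of a type and less RNA per cell cannot be told apart.

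Between 12403943 and 16488762 reads per sample were counted on genes, and the members took 1.05% to 1.28% of them. Of the 96 members, 92 passed the filter on low counts in each table. Neuron, astrocyte, oligodendrocyte and microglia markers were counted in every sample. The summed level of 6 Purkinje and granule cell markers ranged from 173 to 847 CPM (read counts per M (mega) of library size after TMM scaling) in males and from 648 to 979 CPM in females, and dominant male 1 had the lowest value. Dominant male 1 had 161 CPM of Calb1, but 0 of Pcp2, 0.497 of Gabra6 and 1.14 CPM of Cbln3. Every other male had at least 71.5 CPM of Gabra6 and 77.8 CPM of Cbln3. Submissive female 3 held pituitary transcripts, with Prl (prolactin) at 11.8 CPM, where no other sample passed 0.586 CPM. In each of the 54 pairs of samples of 1 group, the counts differed beyond what sampling gives (average chi-square of a gene 1.77 to 15.7). Nothing in the labels says that the mice were bred or processed separately beyond their cages, so p-values measure the spread between these samples.

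Members are short genes. Their median was 733 exon bases, with a range of 292 to 3632, against a median of 2194 over all genes in the table and 710.0 over 87 genes of cytosolic ribosomal proteins. The samples of this series differ in how counts depend on gene length, which is given beside the results below.

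The promoters of 80 members could be matched in RefSeq (GRCm38.p6), and the 250 bases before each start were searched for letters of factors known to act on respiratory genes. The letters were GCGCA, any base and GCGC for NRF1, ACTTCCGG for GABPA and AAGATGGC for YY1, on both strands and without overlap among the motif definitions. The NRF1 letters stood in 14 of the 80 members, 17.5%, and in 5.84% of 17492 protein-coding genes. GABPA letters stood in 3 members (3.75%, against 4.26% of coding genes) and YY1 letters in 2 (2.50%, against 1.77%). Below are 4 of these windows, 5′ to 3′ on the gene's strand with matches in capitals. Sdha was chosen for having the smallest p between the tables, and Atp5k for having the smallest p between female ranks. Cox6a1 is the 1 matched member with NRF1 letters that passed the test of cage in males. Atp5b is the member with the highest level, and none of the 3 motifs was found there. The choice drew on the letters, so these 4 windows do not show how common matches are among the members.
Sdha, chr13:74350241-74350490, minus strand: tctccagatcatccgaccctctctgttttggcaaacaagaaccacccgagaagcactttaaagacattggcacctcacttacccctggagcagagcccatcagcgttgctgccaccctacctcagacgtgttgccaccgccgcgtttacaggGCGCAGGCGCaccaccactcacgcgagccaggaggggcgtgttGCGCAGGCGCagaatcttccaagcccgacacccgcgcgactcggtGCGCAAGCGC
Cox6a1, chr5:115348959-115349208, minus strand: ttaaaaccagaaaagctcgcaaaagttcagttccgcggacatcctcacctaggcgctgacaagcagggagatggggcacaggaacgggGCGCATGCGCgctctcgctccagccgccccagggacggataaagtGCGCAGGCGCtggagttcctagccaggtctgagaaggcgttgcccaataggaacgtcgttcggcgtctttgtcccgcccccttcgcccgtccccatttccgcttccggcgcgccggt
Atp5k, chr5:108434400-108434649, minus strand: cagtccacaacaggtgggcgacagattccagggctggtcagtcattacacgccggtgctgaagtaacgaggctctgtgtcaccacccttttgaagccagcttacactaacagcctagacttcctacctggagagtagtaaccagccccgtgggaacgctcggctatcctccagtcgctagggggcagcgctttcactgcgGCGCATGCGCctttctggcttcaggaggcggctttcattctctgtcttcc
Atp5b, chr10:128083057-128083306, plus strand: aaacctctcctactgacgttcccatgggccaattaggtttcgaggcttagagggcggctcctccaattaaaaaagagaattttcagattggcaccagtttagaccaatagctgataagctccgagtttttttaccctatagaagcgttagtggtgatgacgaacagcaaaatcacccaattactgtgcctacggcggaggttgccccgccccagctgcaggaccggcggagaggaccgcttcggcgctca
The Sdha window held 3 NRF1 matches, that of Cox6a1 held 2 and that of Atp5k held 1. A match describes letters only. Among the members with NRF1 letters, 1 of 13 tested passed the test of cage in males and 5 of 13 passed the comparison of the tables, against 8 of 64 and 20 of 65 of the matched members without them. Of all genes, 5.89% and 36.2% passed these tests.

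Levels were compared between genes as CPM per kilobase of exon, averaged over the 22 samples. Atp5b, the catalytic beta subunit of the ATP synthase, stood highest with 716 CPM per kilobase. Cox4i1, the ubiquitous form of the largest nuclear subunit of complex IV, followed with 597, and Atp5a1, the alpha subunit of the ATP synthase, with 445. In complex I the highest member was Ndufb9 with 254, in complex II Sdha, the flavoprotein that oxidizes succinate, with 167, and in complex III the hinge protein Uqcrh with 348. The assembly factors lay below most subunits, between 6.47 for Ndufaf6 and 26.2 CPM per kilobase for Ndufaf3.

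Complex IV has subunits with a usual form and a second form known from muscle, lung or testis. In the hemispheres the second forms were at low levels. Cox4i2, a form known from lung, had 1.43 CPM per kilobase beside 597 for Cox4i1, and Cox6b2, known from testis, had 1.89 beside 355 for Cox6b1. The heart and muscle forms Cox6a2 and Cox7a1 were somewhat higher, with 5.98 beside 360.0 for Cox6a1 and 5.92 beside 228 for Cox7a2. Cox8b, of heart and muscle, had 1.08 beside 408 for Cox8a, and Cox7b2 had 0.865 beside 171 for Cox7b. Ndufa4l2, a paralog of the complex IV subunit Ndufa4 that is induced in low oxygen, had 1.23 beside 441. Cox8c, known from testis, had 0 counts in all 22 samples, which allows up to 0.182 to 0.242 CPM when 3 counts are taken as the floor.

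**Figure D1:**
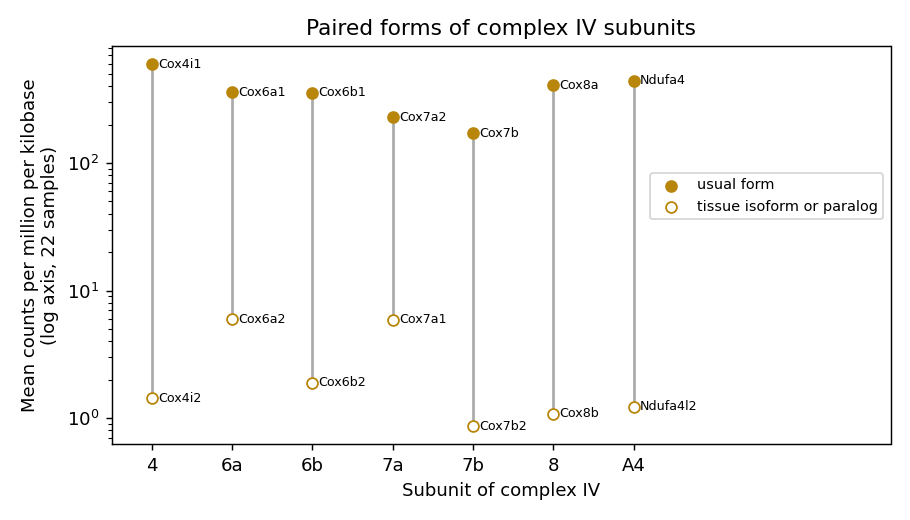
Mean level over 22 samples of 7 complex IV subunits (log axis, CPM per kilobase of exon), with the usual form as a filled point and the second form as an open point. The usual forms lie between 171 and 597, and the second forms between 0.865 and 5.98.

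The membrane ring of the ATP synthase is built from subunit c, which 3 genes encode with the same mature protein. Atp5g3 had 251 CPM per kilobase, Atp5g1 had 78.0 and Atp5g2 had 18.7. The Atp5g2 value is uncertain, since 35.4% of the windows of 85 bases in its transcripts, the length of a read, also occur in transcripts of other genes. The same holds for Atp5l (2.64 CPM per kilobase, 62.6% of windows shared) and Ndufb4 (49.7, 34.5% shared). Of 95 members with transcripts in GENCODE, 27 had such a window and 14 had more than 10% of their windows shared. Ndufs5, a complex I subunit, had 0 counts in all samples. Of its 509 exon bases, 484 lie on the same strand as BC002163, which had 13 to 25 counts per sample. A further 9 members share exon bases with a gene on the opposite strand, and the strand setting of the counting is not given in the sources used here.

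The first question of the study was whether dominant and submissive mice of a sex differ. In males, 0 of the 92 members tested passed edgeR's quasi-likelihood test at an adjusted p under 0.05, as did 0% of all 14737 genes. At an unadjusted p under 0.05 there was 1 member, against 1.32% of all genes, and DESeq2 called 0 members as well. Estimates below 0 were found for 27 members, 29.3%, against 51.4% of all genes. The length trend of the rank difference had a median of 0.0089 at the lengths of the members, and 44 of 92 lay below it. The median log2 difference (dominant minus submissive) was 0.0084 over the members and -0.0015 over all genes tested. When 1 male was left out at a time, the members' median lay between -0.010 and 0.027.

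The male member with the smallest p was Ndufa1, an essential small subunit of complex I on the X chromosome (chrX:37187589-37191238, mm10). It ranged from 47.6 to 55.9 CPM in dominant males, with a median of 52.6, and from 42.6 to 51.4 CPM, with a median of 48.7, in submissive males. The ranges overlapped, and the dominant male had the higher level in 5 of 7 cages. The log2 difference was 0.11 (SE 0.0511, adjusted p = 1.00, edgeR). Cox6a2 had the smallest p in complex IV, with 3.53 to 5.09 CPM in dominant and 3.17 to 4.57 CPM in submissive males, a log2 difference of 0.16 (SE 0.0979, adjusted p = 1.00, edgeR).

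Complex by complex, the male medians lay between 0.0046 in complex II and 0.022 in complex IV. The summed level of the members was 10657 to 12635 CPM in dominant males, with a median of 11059, and 10536 to 12275 CPM in submissive males, with a median of 11245. Both ranks covered nearly the same range.

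In females, 0 of the 92 members passed at an adjusted p under 0.05, where 0.0942% of all 14865 genes did. At an unadjusted p under 0.05 there were 13 members, 14.1%, all lower in dominant females, against 10.5% of all genes in either direction and 4.08% in the lower direction. Of the 92 members, 77 had an estimate below 0, 83.7%, against 50.9% of all genes. Their median log2 difference was -0.044, against -0.0020 over all genes. Without submissive female 3 it was -0.048. DESeq2 also called 0 members.

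The estimates below 0 were spread over all complexes. The median was -0.042 in complex I (33 of 42 below 0), -0.056 in complex II (7 of 8), -0.032 in complex III (8 of 8), -0.042 in complex IV (15 of 17) and -0.060 in complex V (14 of 17). Complex V held 7 of the 13 members at an unadjusted p under 0.05. The assembly factors had a median of -0.040, with 9 of 13 below 0.

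**Figure D2:**
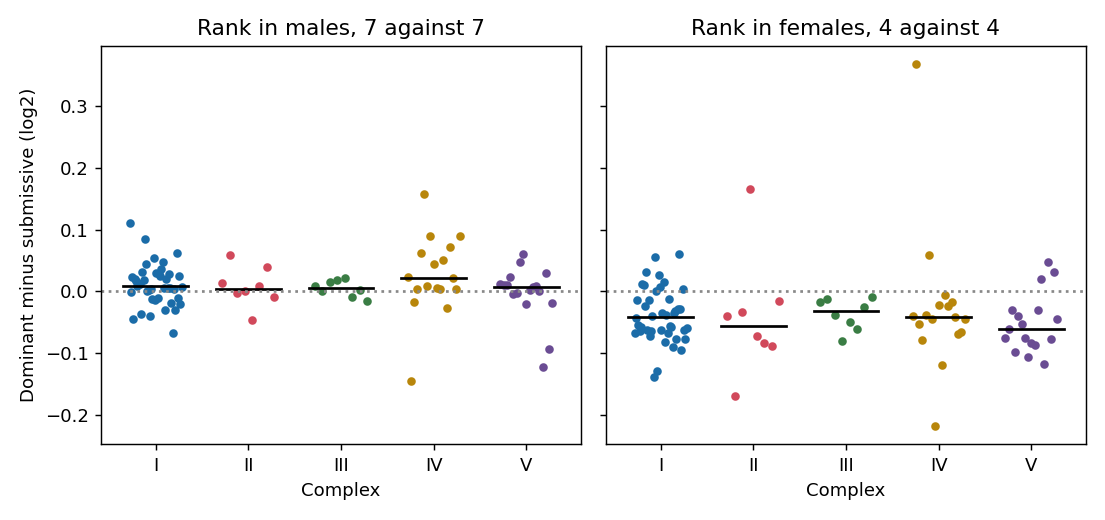
Log2 difference between dominant and submissive mice for each member tested, by complex, in males (left, 7 against 7) and in females (right, 4 against 4), with the median as a bar. In females the medians of the 5 complexes lie between -0.060 and -0.032, and in males between 0.0046 and 0.022. No point passed the test.

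Atp5k, the small subunit e that helps ATP synthase dimers to form, had the smallest p in females. In the order of female cages 1 to 4 it had 106, 101, 98.7 and 97.7 CPM in dominant females and 108, 108, 109 and 111 CPM in submissive females. The ranks did not overlap. The log2 difference was -0.12 (SE 0.0352, adjusted p = 0.204, edgeR), and 0.0942% of all genes passed in this comparison. The share of all genes whose groups do not overlap was not counted, here and for the other genes below. At an unadjusted p under 0.05 (edgeR) there were 10.5% of all genes, with 4.08% in the lower direction.

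Atp5d, the delta subunit of the central stalk, had 109, 104, 110.3 and 106 CPM in dominant and 111, 114, 116 and 117 CPM in submissive females, in the same order of cages. Uqcrc1, a core protein of complex III, had 248, 253, 247 and 243 CPM in dominant and 263, 255, 260 and 267 CPM in submissive females. These ranks did not overlap either, and all dominant values were the lower ones. The log2 differences were -0.097 for Atp5d (SE 0.0344, adjusted p = 0.294, edgeR) and -0.080 for Uqcrc1 (SE 0.0295, adjusted p = 0.330, edgeR).

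Sdhc, a membrane anchor of complex II, had the smallest p in its complex, with 97.4 to 99.0 CPM in dominant and 100.3 to 109 CPM in submissive females, a log2 difference of -0.089 (adjusted p = 0.383, edgeR). The ranks did not overlap. In complex IV the smallest p belonged to Ndufa4. Ndufa4 had 205 to 224 CPM and 222 to 233 CPM, which overlap, and a log2 difference of -0.066 (adjusted p = 0.508, edgeR).

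Summed over complex V, dominant females had 4332, 4425, 4283 and 4210 CPM and submissive females had 4503, 4439, 4516 and 4527 CPM, in the order of the cages. The dominant female was lower in all 4 cages. Over all members the sums were 12139, 12402, 11929 and 11840 CPM against 12510, 12326, 12465 and 12578 CPM, and in female cage 2 the dominant female was the higher one. With female cages 1 and 2 alone the median log2 difference of the members was -0.018, and with female cages 3 and 4 alone it was -0.069.

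Over all genes the female difference went with gene length. In each female sample a trend of the counts on exon length was estimated over all genes, relative to the mean of the table. Its slope was -0.0094 to 0.072 on the log2 scale per unit of log10 length in dominant females and -0.058 to -0.027 in submissive females. At the lengths of the members, the trend of the rank difference over all 14865 genes had a median of -0.044, as the members themselves did. Of the 92 members, 51 lay below the trend. The 58 members under 1000 exon bases had a median of -0.043 and the 25 in the next length class, below 2000 bases, had -0.060, where all genes of these lengths had -0.041 and -0.032. The 9 members of 2000 bases and more had -0.032, and all genes from there to 4000 bases had -0.0095. With each sample's trend removed, the median of the members was -0.0091, and the log2 difference of Atp5k was -0.078 (adjusted p = 0.581, edgeR).

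Cytosolic ribosomal proteins, which are genes of the same length and no part of mitochondria, had a median of -0.050 with 76 of 80 below 0. Beside this, the 4 choroid plexus markers were all lower in dominant females at an unadjusted p under 0.05, with a median of -0.32, and their summed level was 689 to 852 CPM in dominant and 660.3 to 1003 CPM in submissive females. At an adjusted p under 0.05 (edgeR), 0 of the 4 were called. Of all genes, 4.08% were lower at the unadjusted threshold. The 6 neuron markers summed to 4538 to 4760 CPM in dominant and 4505 to 4629 CPM in submissive females. The part of these cell types in the result was not tested.

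**Figure D3:**
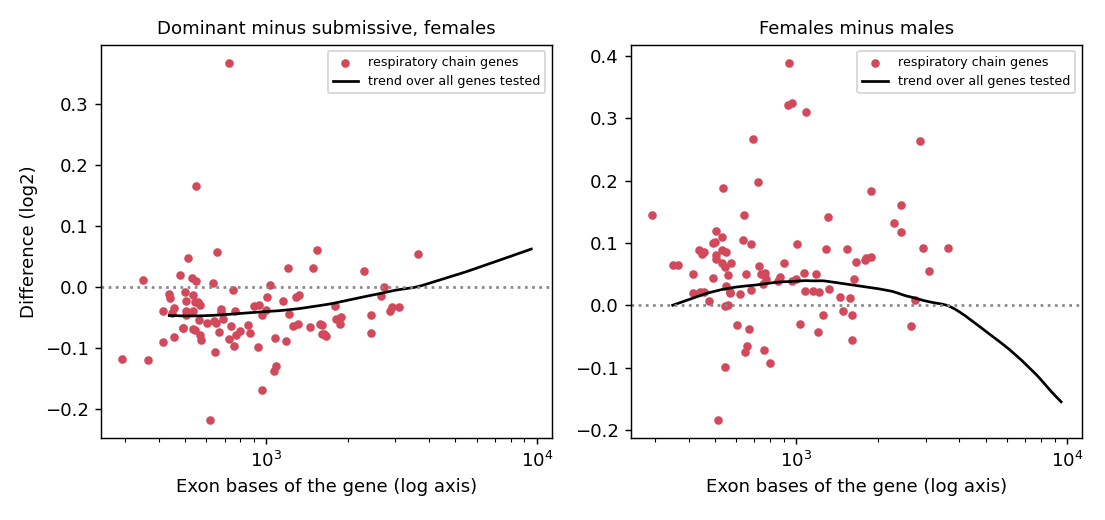
Log2 differences of the members tested (points) against their exon bases (log axis), with the trend over all genes tested (line), between female ranks (left) and between females and males (right). Most members lie where the left trend is below 0, and 51 of 92 fall below that trend.

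Taking all 11 cage pairs together with cage in the model, 0 of 92 members passed, as did 0% of all 14766 genes, and 0 members had an unadjusted p under 0.05, against 2.7% of all genes. The median log2 difference was -0.0066. DESeq2 called 0 members too. The difference between the female and the male rank effect was tested over all 22 samples, where 93 members passed the filter. None of the 93 was called by edgeR (0% of 15233 genes) or DESeq2, and 1 had an unadjusted p under 0.05, against 3.32% of all genes. This was Ndufa1, whose interaction was -0.17 (SE 0.0735, adjusted p = 0.999, edgeR). The members' median interaction was -0.049, and -0.016 with the length trends removed.

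Cage was tested in each sex with rank in the model. In males, 10 of 92 members differed between the 7 cages at an adjusted p under 0.05, 10.9%, where 5.89% of all 14737 genes did, and 42 members had an unadjusted p under 0.05, 45.7%, against 22.3% of all genes. Complex V had 4 of its 17 members called, complexes I and II had 2 each, and complexes III and IV had 1 each. They were Atp5a1, Atp5b, Atp5d and Atp5e (the epsilon subunit) in complex V, Ndufa13 and Ndufb8 in complex I, the iron-sulfur subunit Sdhb and its assembly factor Sdhaf1 in complex II, Uqcrc1 in complex III and Cox6a1 in complex IV. In simulated counts this test called more unchanged genes than its threshold allows, so the calls are less firm than their p.

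The 10 genes had one pattern. Every one had its 4 lowest cage means in cages 1 to 4 and its 3 highest in cages 5 to 7. How many of the other genes called for cage have this pattern was not counted. The mean of the ribosomal protein genes, given below, was divided by the same cages, so the pattern is not particular to these members. Atp5a1, the gene with the smallest p, had cage means of 939, 971, 975 and 930.0 CPM in cages 1 to 4 and of 1143, 1188 and 1118 CPM in cages 5 to 7 (F = 12.4, adjusted p = 0.00657, edgeR). Single mice ranged from 888 to 985 CPM in the first 4 cages and from 1101 to 1221 CPM in the last 3, without overlap.

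Atp5b (chr10:128083307-128090388, mm10) ranged from 1122 to 1232 CPM in cages 1 to 4 and from 1356 to 1445 CPM in cages 5 to 7 (adjusted p = 0.0126, edgeR). Uqcrc1 (chr9:108936648-108949641) ranged from 216 to 240.0 CPM and from 251 to 274 CPM (adjusted p = 0.0120, edgeR). Sdhaf1, needed to insert iron-sulfur clusters into Sdhb, moved most, from cage means of 7.56 to 8.61 CPM up to 10.7 to 11.5 CPM (adjusted p = 0.0265, edgeR). In Atp5a1, Atp5b, Uqcrc1 and Sdhaf1 the mice of the first 4 cages all lay below those of the last 3. In Cox6a1, Atp5e and Sdhb single mice of both sets of cages overlapped.

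**Figure D4:**
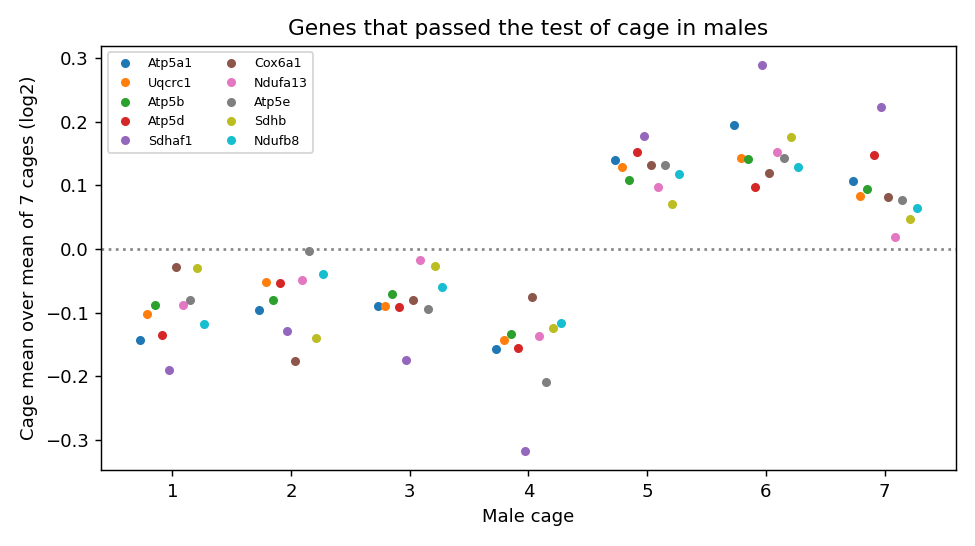
Cage means of the 10 members that passed the test of cage in males, as log2 ratio to the mean of the 7 cages. Cages 1 to 4 lie below 0 for all 10 genes, and cages 5 to 7 lie above.

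The shift was not limited to the called genes. The cage mean of log2 CPM over the 92 members was 5.91 to 5.96 in cages 1 to 4 and 6.04 to 6.10 in cages 5 to 7, while the mean difference between the ranks of a male cage was 0.0097 ± 0.042 (SD, n = 7). The means of the female cages lay within 6.07 to 6.08. Since the division of male cages was read from the values, it carries no test of its own.

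The length trend moved along the same division. Its slope was 0.030 to 0.142 per unit of log10 length in the 8 mice of cages 1 to 4 and -0.177 to -0.030 in the 6 mice of cages 5 to 7. With the trends removed, 3 members were still called, Atp5a1, Atp5b and Uqcrc1, which is 3.26% of the members against 3.53% of all genes in the same fit. Ribosomal protein genes were divided by the same cages, with cage means of log2 CPM of 6.52 to 6.57 in cages 1 to 4 and 6.64 to 6.71 in cages 5 to 7. None of the 80 tested was called by edgeR, and 30 had an unadjusted p under 0.05. The neuron marker sum was 3764 to 4222 CPM in the first and 3892 to 4372 CPM in the second set of cages, which overlap. The neuron markers Rbfox3 and Slc17a7 (2 of 6) passed the test of cage, as did the astrocyte marker Aldh1l1 (1 of 4) and the endothelial marker Cldn5 (1 of 4). Cldn5 had 22.5 to 32.2 CPM in cages 1 to 4 and 35.8 to 41.4 CPM in cages 5 to 7 (adjusted p = 0.00265, edgeR), without overlap, and Aldh1l1 had 79.7 to 91.5 CPM and 92.5 to 98.8 CPM (adjusted p = 0.0370, edgeR). The endothelial markers Flt1, Pecam1 and Slco1a4 and the astrocyte markers Aqp4, Gja1 and Slc1a3 were not called. Their ranges in the 2 sets of cages overlapped. This test called 5.89% of all genes. The part of these cell types in the result was not tested. The count of 10 also moved with single mice, between 2 without dominant male 6 (2.17% of members, 2.78% of all genes) and 21 without submissive male 1 (22.8% of members, 14.2% of all genes).

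In females, 0 of 92 members differed between the 4 cages by edgeR, where 0.074% of all 14865 genes did, and 2 had an unadjusted p under 0.05, against 5.11% of all genes. Cox8a had the smallest p (adjusted p = 0.887, edgeR). DESeq2 was not run for cage.

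**Figure D5:**
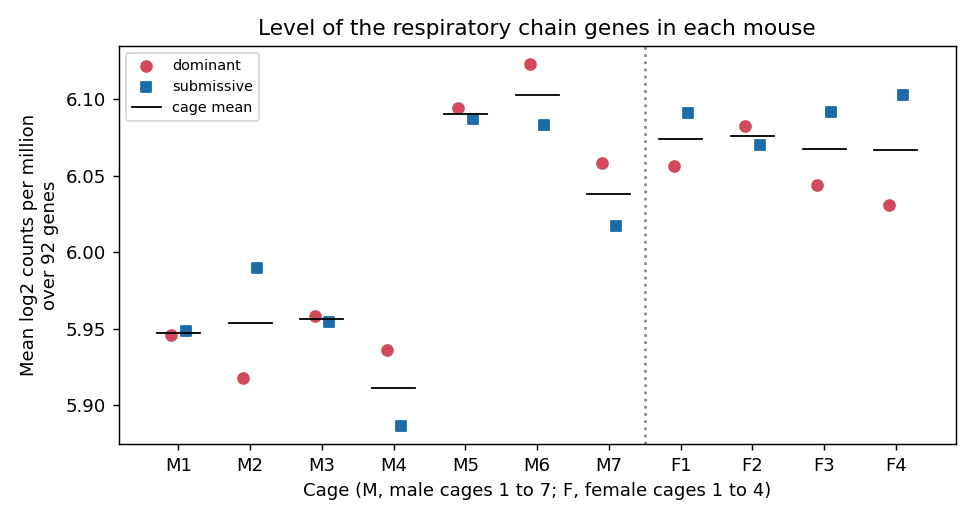
Mean log2 CPM over 92 members in each of 22 mice, by cage, with dominant mice as circles, submissive mice as squares and the cage mean as a bar. The cage means lie between 5.91 and 5.96 in male cages 1 to 4, between 6.04 and 6.10 in male cages 5 to 7, and between 6.07 and 6.08 in female cages. Single mice lie between 5.89 and 5.99, between 6.02 and 6.12, and between 6.03 and 6.10.

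Females and males were compared across the tables, with sex, table and library prefix inseparable. Of 93 members, 30 passed, 32.3%, and 36.2% of all 15233 genes did, so the share of members was near that of all genes. At an unadjusted p under 0.05 there were 38 members, against 44.9% of all genes. The directions were uneven. There were 29 members higher in females, against 18.4% of all genes, and 1 member lower, against 17.8% of all genes. The members' median log2 difference (females minus males) was 0.052, against -0.00015 over all genes, and the length trend at their lengths had a median of 0.030. With each sample's length trend removed, 24 members were called, 25.8%, against 35.3% of all genes. Of these, 19 were higher and 5 lower in females, and the members' median was 0.016.

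Sdha (chr13:74322255-74350240, mm10) had the smallest p. It had 443 ± 17.7 CPM (SD, n = 14) in males, between 420 and 479 CPM, and 533 ± 15.8 CPM (SD, n = 8) in females, between 513 and 557 CPM. The sexes did not overlap. The log2 difference was 0.26 (SE 0.0248, adjusted p = 7.64e-09, edgeR).

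Ndufs3, a core subunit of complex I, ranged from 40.6 to 52.5 CPM in males and from 57.8 to 65.2 CPM in females, a log2 difference of 0.39 (SE 0.0403, adjusted p = 3.71e-08, edgeR). In its transcripts 24.2% of the read-length windows also occur in Gm12251. Atp5d ranged from 78.9 to 102 CPM in males and from 104 to 117 CPM in females (log2 difference 0.32, SE 0.0447, adjusted p = 3.17e-06, edgeR). Cox5a, a subunit of complex IV, ranged from 97.4 to 124 CPM and from 126 to 138 CPM (log2 difference 0.27, SE 0.0403, adjusted p = 9.67e-06, edgeR). None of these genes overlapped between the tables.

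Among the complexes, 13 of 42 members of complex I were called, 3 of 8 in complex II, 3 of 8 in complex III, 5 of 18 in complex IV and 6 of 17 in complex V. Complex III, with Uqcrfs1, the Rieske iron-sulfur protein, as the first of its called genes (log2 difference 0.14, adjusted p = 7.40e-04, edgeR), had 8 of 8 estimates above 0 and a median of 0.083. None of the 6 tissue isoforms tested was called. Cox8a was the member that was lower in females, with 194 to 232 CPM against 209 to 248 CPM in males (log2 difference -0.098, adjusted p = 0.0296, edgeR).

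Mice of a cage entered this fit as separate samples, although male cage mates deviated together over all genes tested. With the counts of the mates of each cage summed, 7 male cages against 4 female cages, 18 of 94 members were called, 19.1%, against 28.6% of all genes, and all 18 were higher in females. Sdha, Ndufs3, Atp5d, Cox5a and Uqcrfs1 passed there too (largest adjusted p = 0.0108, edgeR), and Cox8a did not (log2 difference -0.098, adjusted p = 0.0908, edgeR).

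The comparison depended on which male cages entered. Without male cages 1 to 4, 19 members were called, 10 higher and 9 lower in females, and the median was -0.020. This was 20.4% of the members, against 27.4% of all genes in the same fit. Without male cages 5 to 7, 62 were called, all higher, which was 67.4% of the members against 46.1% of all genes, and the median was 0.12. Since the male cages were divided by the members' own levels, the median had to move in these directions. The fits without a set of male cages are therefore no separate check of the calls. The count was also 19 without dominant female 2 and without submissive female 3, where 32.6% and 33.0% of all genes were called. Sdha, Ndufs3, Atp5d and Cox5a passed without either set of male cages, with log2 differences of 0.22, 0.31, 0.19 and 0.17 in the first case and of 0.30, 0.46, 0.43 and 0.35 in the second (largest adjusted p of these 2.64e-04, edgeR). Uqcrfs1 no longer passed without male cages 1 to 4 (log2 difference 0.073, adjusted p = 0.0734, edgeR), nor did Cox8a without male cages 5 to 7 (-0.047, adjusted p = 0.274, edgeR). The neuron marker sum was 4505 to 4760 CPM in females and 3764 to 4372 CPM in males, with Snap25 and Rbfox3 called higher and the other 4 of 6 not called. Snap25 alone had 1826 to 2013 CPM in females and 1326 to 1641 CPM in males. Of the Purkinje and granule cell markers 2 of 6 were called higher, of the microglia markers 1 higher and 1 lower of 4, and of the astrocyte, oligodendrocyte and choroid plexus markers 2, 1 and 1 of 4 each were called lower. The red cell marker Alas2, the 1 of its list that was tested, was called lower (2.58 to 5.98 CPM against 4.81 to 9.41 CPM in males), and the muscle marker Acta1 was called higher. The part of these cell types in the result was not tested.

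Genes that work next to the respiratory chain were followed in 5 lists. In the rank comparisons, 0 genes of these lists were called by edgeR in either sex, with 1 in males and 7 in females of 78 tested at an unadjusted p under 0.05. These are 1.28% and 8.97%, against 1.32% and 10.5% of all genes. Between females and males 29 of the 78 were called, 37.2%, against 36.2% of all genes, with 25 higher and 4 lower. For the counts by direction given here and below, 18.4% of all genes were called higher and 17.8% lower. Of the 13 genes of the tricarboxylic acid cycle, which feeds NADH and succinate to complexes I and II, 6 were higher and 1 lower in females than in males, with Ogdh at 0.21 (adjusted p = 1.52e-06, edgeR) and Mdh2 at 0.17 (adjusted p = 2.95e-04, edgeR). Of 35 tested genes of electron carriers and further assembly proteins, 9 were higher and 1 lower. They included cytochrome c (Cycs, 0.21) and Cox15 (0.31), which makes the heme of complex IV. Of the 6 carriers and pores, 5 were higher, among them the ADP and ATP exchangers Slc25a4 (0.16) and Slc25a5 (0.15).

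Glycolysis, which makes ATP outside mitochondria, had 2 of 15 genes higher, Pgk1 and Pgam1, and 1 lower, Pfkl. Among 9 regulators of mitochondrial genes, the mitochondrial RNA polymerase Polrmt (0.33), Esrra (0.21) and Tfam (0.12) were higher and the GABP subunit Gabpb1 was lower (-0.22). Between male cages, 0 of 35 electron carrier and assembly genes, 0 of 13 cycle genes and 0 of 9 regulators were called by edgeR, with 4, 1 and 1 at an unadjusted p under 0.05. In glycolysis 3 of 15 were called, Pkm, Pfkl and Pgam1, and 11 had an unadjusted p under 0.05, 73.3%. Of the carriers 1 of 6 was called, Slc25a4, and 3 had an unadjusted p under 0.05. Over the 5 lists this made 4 of 78, 5.13%, against 5.89% of all genes, and 20 at an unadjusted p under 0.05, 25.6%, against 22.3%.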

How the data were processed

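Total RNA of 22 right hemispheres was sequenced as stranded single-end reads after ribosomal RNA was removed. The authors trimmed the reads with cutadapt 1.15, used STAR 2.6.0a for mapping to mm10, and deposited raw read counts per gene from featureCounts 1.6.2 with an iGenomes annotation, in a table for males and a table for females. Versions are from the submitters' processing notes. No value in the tables is normalized.

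From these counts, genes were kept by edgeR's filter (smallest count 10, smallest total 15), scaled with TMM and tested with edgeR 4.0.16 (R 4.3.3), a quasi-likelihood fit over all genes adjusted after Benjamini and Hochberg with the threshold 0.05. Rank was tested within each sex with no further term, over all cage pairs with cage as a term, and as an interaction over 4 group means. Cage was tested as an F test with rank in the model, and females against males over all 22 samples, without a cage term. An alternative summed the counts of cage mates. The edgeR fits were tested on simulated counts, and the searches for shared exon bases, copies and motifs were not. Log2 CPM used a prior count of 2. Exon bases are the Length column of the tables. The length trend of each sample was a loess curve (span 0.3) removed through offsets. Copies were searched in GENCODE M21 transcripts as windows of 85 bases, and promoters were read from RefSeq.

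Same-numbered samples pair, because the library names give them the same cage and the paper states simultaneous killing. Their deviations from the group means correlated over all genes tested with a mean r of 0.177 in males, against -0.029 for other pairs, and 0.024 against -0.0080 in females. Over the members alone the mean r was 0.046 in males, between -0.106 and 0.213, against -0.0088 for other pairs. In females it was 0.074, between -0.362 and 0.439, against -0.027.

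The named genes are, in each complex, the member with the highest level per kilobase and those with the smallest p in each comparison, with the isoforms, the 3 with the smallest p in each direction between tables, and the first gene of each cage test. A further gene that this rule names is not reported here. The other genes printed were chosen after their values were seen. The members and lists were chosen with earlier results of these data known. Alternatives were DESeq2 1.42.0, its size factors, upper-quartile factors, no filter, removed length trends, the replicate block, subunits only, subsets of cages and leaving out each sample. Depth limits a count of 0 to 3 counts, which covers counting error only. Other measurements of the study were not analysed here.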

Additional observations from a re-analysis of the deposited data

Results flagged for a closer look

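Of 188 sets of values, each a named member or the sum of a complex in 1 group of mice, 4 held a sample far from the others, while chance flags about 1 in 20. In submissive males, Cox4i2 had 1.98 CPM in the sixth mouse and 0.644 to 1.14 CPM in the others. In dominant females, the second mouse, from female cage 2, stood above the other 3 in Sdhaf1 (13.05 against 10.4 to 10.8 CPM), Ndufa13 (149 against 139 to 140.3 CPM) and Cox6b1 (191 against 180 to 181 CPM).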

How the results depend on the processing

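The counts of members called for rank, in males, in females, over all pairs and as the interaction, were 0 under every alternative run. With the replicate block, the median log2 difference was 0.0074 in males, -0.044 in females and -0.047 for the interaction, and without the block it was -0.0054 over all pairs, so the pairing changed no call among the members. Cage in males gave 3 calls with the length trend removed and 2 to 21 when a sample was left out. Females against males gave 19 calls (median -0.020) without male cages 1 to 4, 62 (median 0.12) without male cages 5 to 7, 18 (median 0.052) with the counts of cage mates summed, 24 (19 higher and 5 lower, median 0.016) with the length trend removed, 22 with upper-quartile factors, and 19 to 31 when a sample was left out. The summed counts, the settings without sets of cages, and for cage the unfiltered fit and most fits that leave out a sample, were chosen after seeing the data. With fewer samples the tests also have less power. Estimates near 0 changed sign for Uqcrc2 by rank in males (-0.0024 in male cages 1 to 4 alone, -0.0017 to 0.042 when a sample was left out, the lowest without dominant male 6), and for Ndufv1 (0.0049) and Ndufs7 (0.0063) between females and males without male cages 5 to 7. The cause was not tested. Scaling moved the median of all genes by less than 0.1. Over all genes, rank in females gave 14 calls and 0 to 120 under the alternatives, and cage in males gave 868 and 381 to 2102. Members at low counts, such as Cox4i2, and those that share windows with copies are limited by depth and by the counting.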
